A study of Mus musculus with 26 samples.

Results

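The peaks described here are those that the authors' annotation assigned to Bcl11b, Foxp1, Foxp2 or Meis2, 4 transcription factor genes of striatal neurons. Every row of the 8 deposited peak lists that carried 1 of these gene names was taken, which gave 423 of 399461 peaks. Overlapping peaks of the 8 lists were chained into elements, and 105 of the 94493 merged regions of the series belonged to these genes: 48 to Foxp1, 21 to Foxp2, 20 to Meis2 and 16 to Bcl11b. Rows were taken by gene name and not by a measured value, but the 4 genes themselves were picked with earlier results of these data known.

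Open chromatin was measured by ATAC-seq, in which a transposase cuts accessible DNA and leaves sequencing adapters there, in nuclei from mice, taken from medium spiny neurons (MSNs), the projection neurons of the striatum. The labels name the cells D1 MSN or D2 MSN, after the dopamine receptor that each carries, and give the tissue as brain. The series title adds the nucleus accumbens. The 4 states were baseline (SS), acute cocaine (SC), chronic cocaine with a prolonged withdrawal (CS) and cocaine relapse (CC). For D1 MSNs there were 2 libraries of SS, 4 of SC, 4 of CS and 4 of CC, and for D2 MSNs 2 of SS, 1 of SC, 8 of CS and 1 of CC, 26 in all. Doses, strain, age and the way the nuclei were sorted are not given in the labels. Each group has 1 peak list and no value per library, so no spread between replicates and no test between groups could be had. All differences below describe these lists.

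All 4 genes encode DNA-binding proteins that act during the making of striatal neurons and stay expressed in the adult striatum. Bcl11b, also called Ctip2, is a zinc finger protein, mainly a repressor, that MSNs need to mature and that is widely used as their marker. Foxp1 and Foxp2 are forkhead repressors that can pair with each other, and Foxp2 is best known from an inherited human speech disorder. Meis2 is a homeodomain protein of neurons born in the lateral ganglionic eminence. ATAC-seq shows where DNA at such a gene is accessible, not how much of the protein is made.

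The lists differ in length and make, and this bears on every count. They held 27917 peaks in D2 CS, 28321 in D1 SC, 28579 in D1 SS, 48469 in D1 CS, 58810 in D2 SC, 61818 in D2 SS, 68444 in D2 CC and 77103 in D1 CC. D2 CS and the SC, CS and CC lists of D1 MSNs had 71 to 144 peaks on patch scaffolds and the other lists 4 to 7. The labels do not give the cause of this split. It cannot be told apart from the group in D1 SC, CS or CC against D1 SS. The same holds for D2 CS against the other D2 lists, and for D1 against D2 in SC and CC. Fold enrichment, the authors' ratio of signal over background at a peak, also differed in scale, with a median of 4.37 in D2 SS to 6.02 in D1 SC, and is therefore given as a percentile within its own list, 100 being the strongest. A percentile depends on how many weak peaks its list holds. The 5th percentile of fold was 2.79 in D2 CC and 3.97 in D1 SC. The same fold can thus stand at different percentiles, and percentiles of different lists are not on 1 scale. The 6 general MSN markers (such as Ppp1r1b and Rgs9) had a peak in every list. Of 10 D1 MSN markers 8 to 10 had one in each list, and of 10 D2 MSN markers 7 or 8 in every list but D1 SS, which had 1. Peaks at these markers thus separated D1 SS, but not the other D1 lists, from the D2 lists. Of 25 markers of glia, interneurons and cortical neurons, 7 to 14 had a peak in 7 lists and 19 in D1 CC. Their part in the results on D1 CC was not tested.

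The genes lie on chromosomes 12, 6 and 2, on the build mm10. In the RefSeq table of that build (GRCm38.p6), Bcl11b spans chr12:107910403-108004145 (93.7 kb, minus strand), Foxp1 chr6:98925342-99522746 (597 kb, minus strand), Foxp2 chr6:14901349-15441977 (541 kb, plus strand) and Meis2 chr2:115861264-116067537 (206 kb, minus strand). Foxp1 and Foxp2 are thus among the long genes of the genome, and most of their elements lie inside the gene. Exons and introns were not separated here.

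Promoter windows of 300 bases, 250 before and 50 after an annotated start, were matched in RefSeq for 3 of the 4 genes. The windows below are shown because they differ in whether any list had a peak in them and in CpG content. The starts they belong to are not the outermost ends of the genes given above: the Foxp1 starts lie 494 and 1.75 kb inside the 5′ end of the gene, and the Bcl11b start lies 731 bp inside. CpG dinucleotides are in capitals, and each window reads 5′ to 3′ on the gene's minus strand.
Foxp1, internal start, chr6:99028249-99028548: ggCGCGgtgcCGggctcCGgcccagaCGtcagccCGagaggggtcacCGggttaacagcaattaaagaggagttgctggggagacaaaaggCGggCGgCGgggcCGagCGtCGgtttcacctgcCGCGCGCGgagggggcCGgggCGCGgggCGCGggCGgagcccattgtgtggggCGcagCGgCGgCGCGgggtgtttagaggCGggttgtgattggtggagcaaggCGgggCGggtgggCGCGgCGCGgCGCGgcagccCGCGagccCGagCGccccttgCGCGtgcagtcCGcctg
Foxp1, distal start, chr6:99520944-99521243: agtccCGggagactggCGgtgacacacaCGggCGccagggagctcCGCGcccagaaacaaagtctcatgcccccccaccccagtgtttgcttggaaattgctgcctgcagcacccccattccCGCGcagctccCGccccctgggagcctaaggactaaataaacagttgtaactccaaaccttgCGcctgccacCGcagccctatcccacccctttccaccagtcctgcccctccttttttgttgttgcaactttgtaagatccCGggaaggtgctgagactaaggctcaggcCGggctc
Bcl11b, chr12:108003365-108003664: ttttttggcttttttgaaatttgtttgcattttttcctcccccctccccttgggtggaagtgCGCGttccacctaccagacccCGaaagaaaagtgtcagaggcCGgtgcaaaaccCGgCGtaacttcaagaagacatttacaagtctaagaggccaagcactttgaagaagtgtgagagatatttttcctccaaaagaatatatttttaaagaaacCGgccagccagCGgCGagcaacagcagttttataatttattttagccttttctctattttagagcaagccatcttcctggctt
The internal Foxp1 window had 44 CpGs and a GC content of 75.3%, and all 8 lists had a peak in it. The distal Foxp1 window had 13 CpGs at 60.3% GC, and 5 lists (CS and CC of D1 MSNs, and SS, SC and CC of D2 MSNs) had a peak in it. The Bcl11b window had 9 CpGs at 43% GC, and 0 lists had a peak in it. The 5′ end of Bcl11b itself is covered by the element chr12:108003790-108004371, 126 bp from the window, which 7 lists held. The median over 32851 RefSeq windows was 7 CpGs and 52.7% GC. The Meis2 window (chr2:116064570-116064869, 13 CpGs) and another Foxp1 window (chr6:99266466-99266765, 5 CpGs) also held no peak in any list, with the nearest elements 645 bp and 97 bp away. These windows were searched on both strands for a forkhead core (TGTTTAC, in 3.65% of all windows), a Meis core (TGACAG, in 19.2%), an AP-1 site (TGANTCA, in 7.81%) and a CRE (TGACGTCA, in 1.79%). The only match was a Meis core in the Foxp1 window at chr6:99266466-99266765.

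Foxp1 had the most peaks of the 4 genes in every list, and the number of peaks of all 4 genes followed the length of the list. Foxp1 had 11 peaks (SS), 14 (SC), 22 (CS) and 42 (CC) in D1 MSNs and 30 (SS), 29 (SC), 9 (CS) and 40 (CC) in D2 MSNs. They covered 3037 bp in D2 CS, the least, and 19435 bp in D2 CC, the most. D1 CC and D2 CC were high and D2 CS and D1 SS low. Among all genes named in a list, Foxp1 ranked 19th (D1 SC) to 78th (D2 CS) by peak number, and 34th of 21540 by elements.

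Foxp2 had 9 peaks (SS), 4 (SC), 8 (CS) and 20 (CC) in D1 MSNs and 14 (SS), 16 (SC), 5 (CS) and 17 (CC) in D2 MSNs. Its covered length ran from 1392 bp in D1 SC to 8908 bp in D1 CC. D1 SS and D1 SC lists are of nearly the same length, yet Foxp2 had 3.15 peaks per 10000 peaks of the list in D1 SS and 1.41 in D1 SC. The other 3 genes each had fewer peaks in D1 SS than in D1 SC.

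Meis2 had 4 peaks (SS), 5 (SC), 7 (CS) and 16 (CC) in D1 MSNs and 12 (SS), 12 (SC), 2 (CS) and 11 (CC) in D2 MSNs, over 807 bp (D2 CS) to 6224 bp (D1 CC). Bcl11b had 2 peaks (SS), 4 (SC), 11 (CS) and 15 (CC) in D1 MSNs and 9 (SS), 9 (SC), 4 (CS) and 10 (CC) in D2 MSNs, over 751 bp (D1 SS) to 5571 bp (D1 CC). Bcl11b was lowest in D1 SS and Meis2 in D2 CS, so the genes did not share 1 order of the lists.

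**Figure D1:**
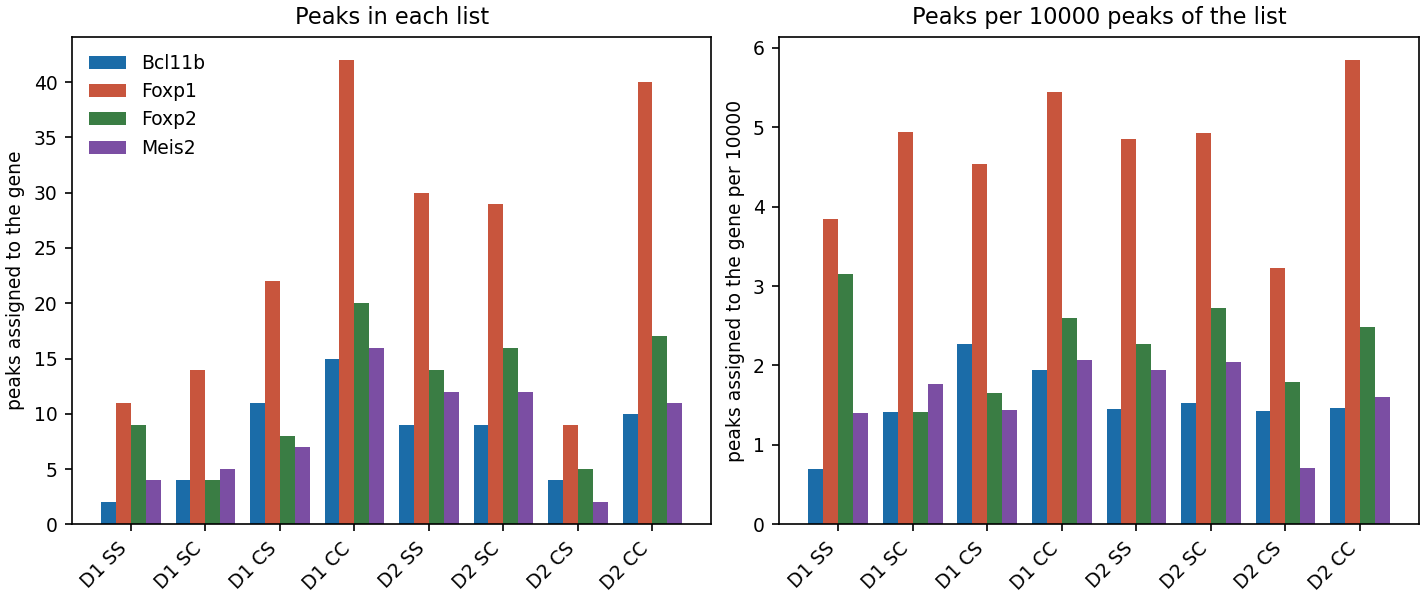
Peaks assigned to each gene in the 8 lists, as counts (left, y axis) and per 10000 peaks of the list (right, y axis); each bar is 1 gene in 1 list, with no error since each group has 1 list. Foxp1 stands at 9 to 42 peaks and leads in each list, and Foxp2 is higher in D1 SS (9) than in D1 SC (4).

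Relative to list length the spread was smaller. The 4 genes together had 9.10 (SS), 9.53 (SC), 9.90 (CS) and 12.1 (CC) peaks per 10000 in D1 MSNs and 10.5 (SS), 11.2 (SC), 7.16 (CS) and 11.4 (CC) in D2 MSNs. The order of these values was close to that of list length. With every list limited to its strongest 27917 peaks by q, the counts were 25 (SS), 26 (SC), 16 (CS) and 16 (CC) in D1 MSNs and 17 (SS), 16 (SC), 20 (CS) and 18 (CC) in D2 MSNs. D1 CC, highest in the whole lists with 93 peaks, was then level with the lowest. Foxp2 still had 9 peaks in D1 SS and 4 in D1 SC. These lists, of 28579 and 28321 peaks, were hardly shortened, so this setting does not check that difference. Bcl11b had 1 to 4 peaks in each list.

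**Figure D2:**
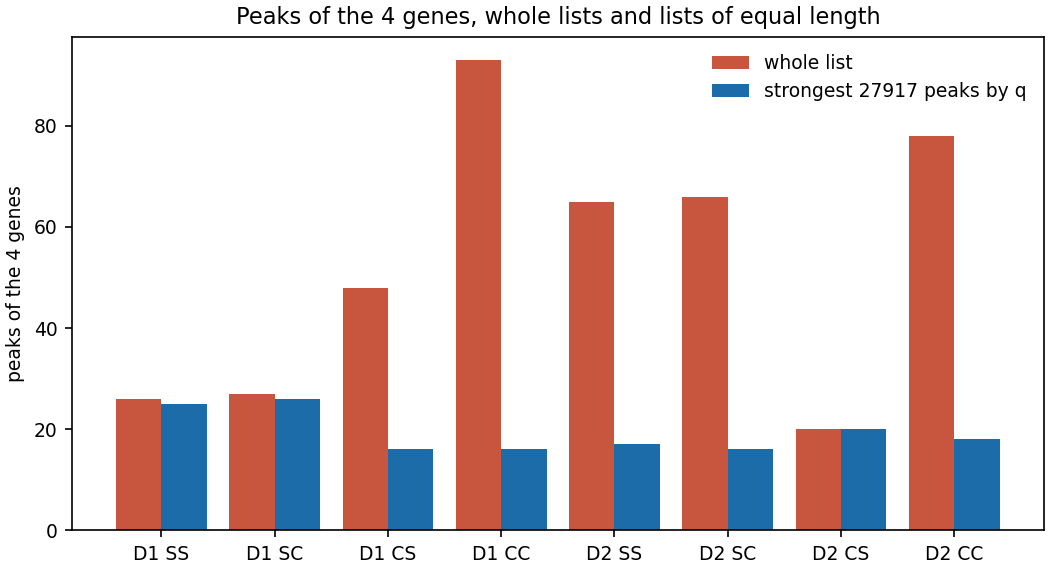
Peaks of the 4 genes together (y axis) in each list, in the whole list (red) and among its strongest 27917 peaks by q (blue). The whole lists range from 20 to 93 and the lists of equal length from 16 to 26, with D1 SS and D1 SC highest.

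For their length, Bcl11b and Meis2 carried many elements. Bcl11b had 17.1 elements per 100 kb of gene, Meis2 9.70, Foxp1 8.03 and Foxp2 3.88. The median was 4.53 over 2607 genes that had an element and at least the length of Bcl11b. Genes of that length without an element were left out. Of those genes, 99.8% were below Bcl11b, 91.4% below Meis2, 82.9% below Foxp1 and 42.0% below Foxp2. Bcl11b is itself the shortest gene of that set. Elements upstream that carry the gene's name are counted. The counts are of the 8 lists together. With peaks within 200 bp joined, Bcl11b had 13 elements, Meis2 19, Foxp1 45 and Foxp2 20. With lists of equal length they had 6, 7, 18 and 11. The shares of genes below them were not computed in these settings.

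Of the 105 elements, 12 were in all 8 lists (11.4%), against 18.2% of all merged regions. Foxp1 had 7 of the 12, Foxp2 3, and Bcl11b and Meis2 1 each. Of the 2607 long genes, 98.4% had fewer than the 7 of Foxp1, 78.1% fewer than the 3 of Foxp2 and 22.8% fewer than the 1 of Bcl11b and Meis2, which is the median. These counts are not scaled by gene length, and Foxp1 spans 597 kb. As a share, 14.6% of the 48 Foxp1 elements were in all 8 lists. Elements away from promoters were in all 8 lists in 9 of 93 cases, close to the 9.72% of all regions with a peak of the authors' gene-body class. Promoter elements were so in 3 of 12 cases, against 49% of all promoter regions. Elements in all 8 lists had a median width of 786.5 bp, those in fewer lists 515 bp, and those in 1 list 235.5 bp. An element spans the chained peaks of all lists that hold it, so this width grows with their number by construction. In the D1 CC list by itself, the median peak width was 669.5 bp for elements in all 8 lists. It was 409 bp for those in 2 to 7 lists and 232 bp for those in 1.

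**Figure D3:**
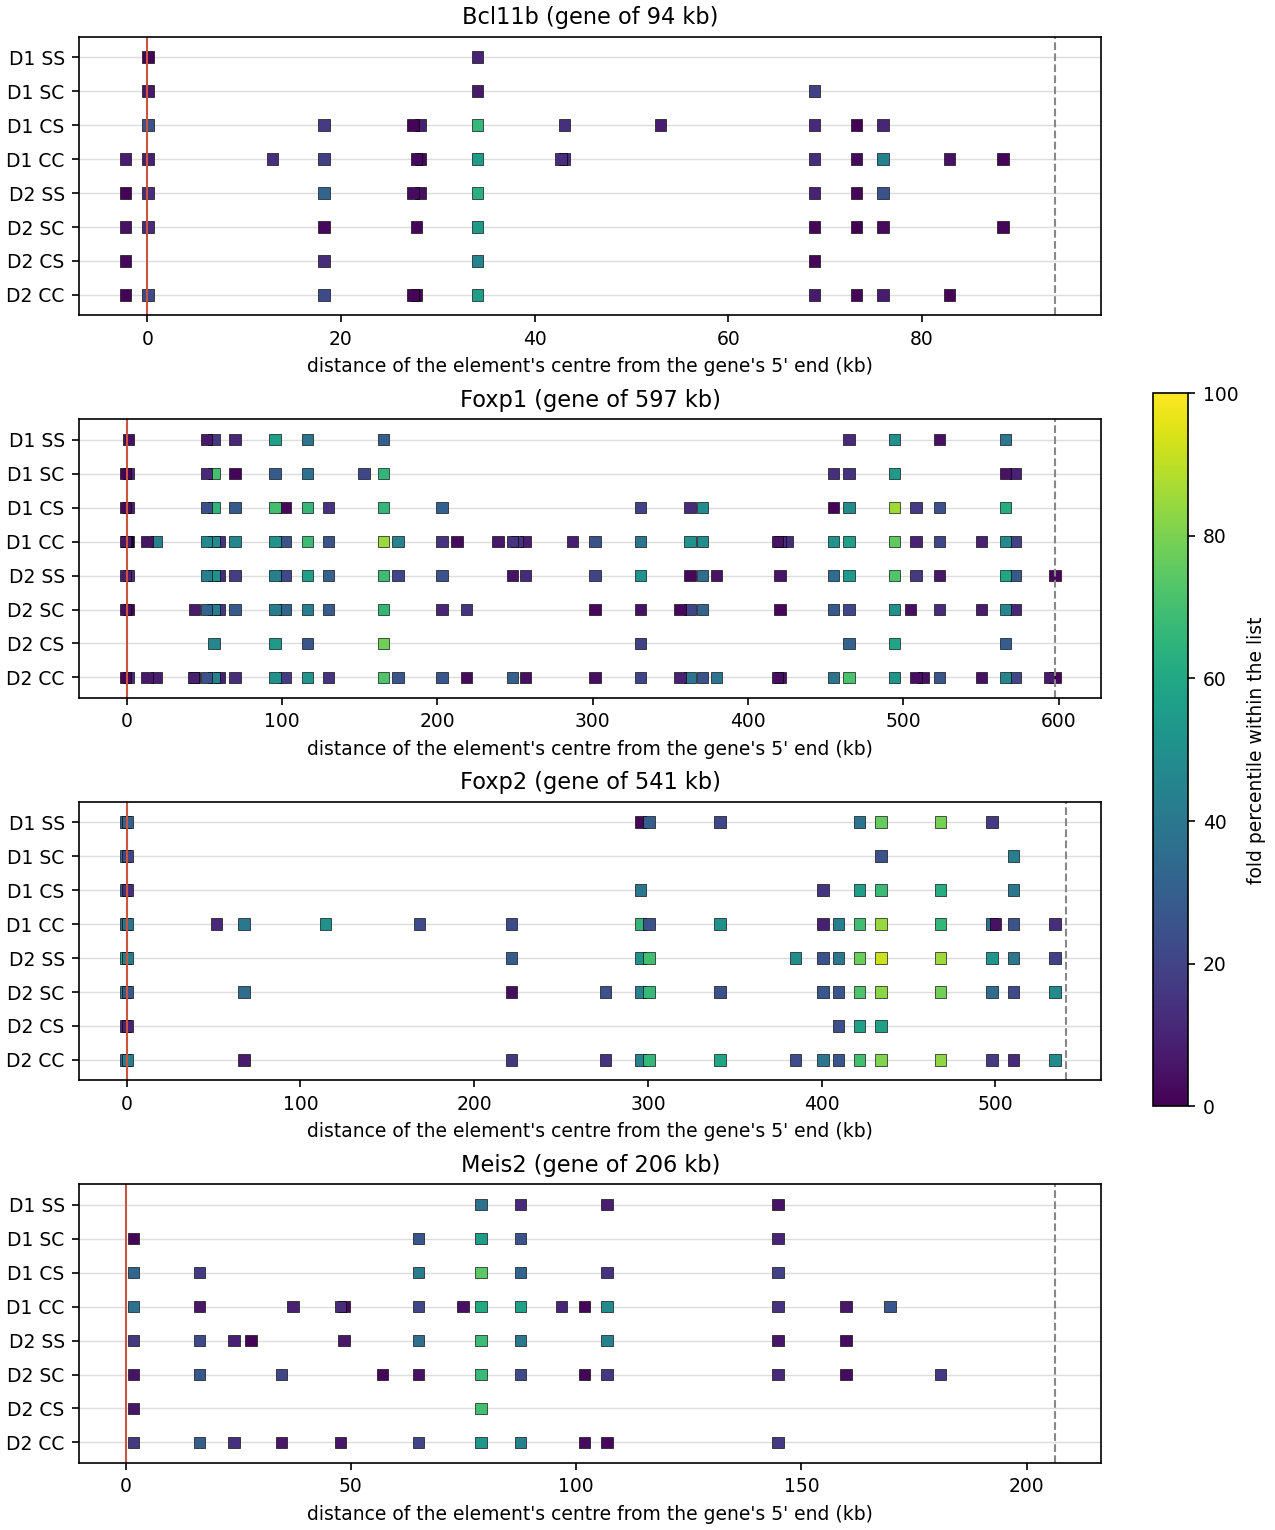
Elements of each gene by list; the x axis is the distance of the element's centre from the RefSeq 5′ end of the gene in kb (solid line, dashed line at the 3′ end), and the colour is the fold percentile within the list. Columns filled in all 8 rows are the elements held by every list, such as the Bcl11b element 34.1 kb and the Meis2 element 78.9 kb into the gene.

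The single Bcl11b element in all 8 lists lies inside the gene, 34.1 kb from its 5′ end, at chr12:107969700-107970403. Its fold percentile was 9.97 (SS), 6.81 (SC), 66.6 (CS) and 55.3 (CC) in D1 MSNs and 63.6 (SS), 54.8 (SC), 45.3 (CS) and 56.1 (CC) in D2 MSNs. It stood below percentile 10 in D1 SS and D1 SC and above 45 in the other 6 lists. Its fold was 3.42 in D1 SS and 4.12 in D1 SC, and 4.71 (D2 CC) to 5.49 (D1 CS) in the other 6. Apart from it, no Bcl11b element was in more than 7 lists.

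The single Meis2 element in all 8 lists is at chr2:115988278-115989061, 78.9 kb from the 5′ end. Its percentile was 36.9 (SS), 55.1 (SC), 74.4 (CS) and 60.5 (CC) in D1 MSNs and 68.1 (SS), 67.3 (SC), 69.7 (CS) and 53.5 (CC) in D2 MSNs. D1 SS was lowest, and the D1 and D2 lists overlapped. In D2 CS it was 1 of only 2 Meis2 peaks, the other being the promoter.

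For Foxp1 the leading element in all 8 lists was chr6:99357175-99357864, 165 kb from the outer 5′ end, with a median percentile of 67.3. Its values were 29.5 (SS), 65.7 (SC), 65.9 (CS) and 84.9 (CC) in D1 MSNs and 68.6 (SS), 66.1 (SC), 78.3 (CS) and 72.6 (CC) in D2 MSNs, lowest in D1 SS. The internal promoter at chr6:99027785-99028966 came next with a median of 56.4, and then chr6:99426811-99427603, 95.5 kb from the 5′ end, with a median of 51.2 (27.9 in D1 SC to 70.3 in D1 CS). The other 4 Foxp1 elements in all 8 lists had medians of 39.5 to 47.5. They lie at chr6:98956478-98957360, chr6:99057236-99058118, chr6:99405951-99406706 and chr6:99466233-99466835.

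Of the 12 elements in all 8 lists, the strongest by median percentile (78.5) was in Foxp2, chr6:15335129-15335917, 434 kb from the 5′ end. Its percentile was 76.4 (SS), 25.1 (SC), 67.8 (CS) and 84.6 (CC) in D1 MSNs and 92.2 (SS), 82.7 (SC), 57.3 (CS) and 80.7 (CC) in D2 MSNs. D1 SC was far below the rest in percentile. Its fold there was 5.00, against 5.56 in D1 CS, the next lowest fold. An element of like strength, chr6:15369174-15369976, lies 468 kb from the 5′ end. It had percentiles of 79.2 (SS), 62.5 (CS) and 66.1 (CC) in D1 MSNs and 85.4 (SS), 78.4 (SC) and 83.1 (CC) in D2 MSNs, and was missing from D1 SC and D2 CS. The other Foxp2 elements in all 8 lists are at the outer promoter.

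The peaks that Foxp2 had in D1 SS but not in D1 SC were 6 of its 9 elements in D1 SS, and 5 of these 6 (83.3%) were missing from D2 CS as well, against 80.1% of all regions that D1 SS had and D1 SC lacked. D1 SC had 1 Foxp2 element that D1 SS lacked (chr6:15411236-15411907). For Foxp1, D1 SS had 1 element that D1 SC lacked and D1 SC 4 that D1 SS lacked. Over all regions, D1 SS had 7703 of its 27598 without D1 SC, and D1 SC 6243 of its 26138 without D1 SS. D1 SS and D1 SC come from the lists with few and many patch peaks, so the split in patch peaks and the state cannot be told apart here.

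Promoter peaks, those within 1000 bp of the start that the authors' annotation gives, were weak at Bcl11b and Meis2. The Bcl11b promoter element, chr12:108003790-108004371, centred 64.5 bp inside the RefSeq 5′ end, had percentiles of 0.598 (SS), 5.87 (SC), 25.5 (CS) and 8.86 (CC) in D1 MSNs and 12.8 (SS), 12.4 (SC) and 22.1 (CC) in D2 MSNs, with no peak in D2 CS. The fold of this element was highest in D1 SC, at 4.04, though its percentile there was 5.87. The median of the best promoter peak over all genes was 66.1 (D1 SS) to 79.0 (D1 CC). So in every list that held it, the Bcl11b promoter peak stood far below the typical promoter: 0.384% (D1 SS) to 12.5% (D1 CS) of genes with a promoter peak were lower. With lists of equal length 2 lists held a Bcl11b promoter peak. Within 250 bp of the authors' start 0 did, although the element covers the RefSeq 5′ end, since the authors' start is another one.

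The Meis2 promoter element, chr2:116065514-116066189, lies at the authors' start, 1.69 kb inside the RefSeq 5′ end. It had percentiles of 1.5 (SC), 32.5 (CS) and 37.6 (CC) in D1 MSNs and 16.1 (SS), 4.71 (SC), 5.43 (CS) and 16.9 (CC) in D2 MSNs, and D1 SS had no peak there. D1 CS and D1 CC were highest. From 0.726% (D1 SC) to 15.9% (D1 CC) of genes with a promoter peak were lower. With lists of equal length 4 lists held the peak.

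Foxp1 showed a stronger internal promoter and weak ones near its outer end. At the internal start, chr6:99027785-99028966, whose CpG-rich window is printed above, the percentile was 49.6 (SS), 54.1 (SC), 85.6 (CS) and 75.8 (CC) in D1 MSNs and 72.4 (SS), 50.5 (SC), 58.7 (CS) and 52.7 (CC) in D2 MSNs. D1 CS was the highest, and the only list in which it passed the median of all genes (76.6). Near the distal start, the element chr6:99521064-99522201, centred 1.11 kb inside the 5′ end, had 3.27 (SS), 10.8 (SC), 8.72 (CS) and 6.63 (CC) in D1 MSNs and 13.2 (SS), 0.436 (SC) and 12.3 (CC) in D2 MSNs, and no peak in D2 CS. The internal element was above the distal one in each of the 7 lists that held both. The other Foxp1 promoter elements were also weak. The element at chr6:99523061-99523649 was in 6 lists with percentiles of 0.531 to 8.45, chr6:99265855-99266369 in 3 lists (D1 CC, D2 SS and D2 CC) with 3.61 to 11.9, and chr6:99522377-99522607 and chr6:99522730-99522970, which covers the 5′ end, in D1 CC alone with 2.86 and 3.17.

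Foxp2 had promoter elements at its outer start and at internal starts. The outer pair, chr6:14900349-14901153 and chr6:14901299-14902000, was in all 8 lists. The first had percentiles of 32.2 (SS), 38.6 (SC), 32.0 (CS) and 36.0 (CC) in D1 MSNs and 59.0 (SS), 46.5 (SC), 13.1 (CS) and 34.0 (CC) in D2 MSNs, highest in D2 SS and lowest in D2 CS. The second ranged from 9.51 in D2 CS to 42.6 in D2 SS. An internal promoter element 296 kb into the gene, chr6:15196803-15197460, was absent from D1 SC and D2 CS and ran from 1.52 in D1 SS to 66.2 in D1 CC. Another, chr6:15322911-15323584, was absent from D1 SC only and had 38.4 (SS), 55.3 (CS) and 69.5 (CC) in D1 MSNs and 77.1 (SS), 72.0 (SC), 57.3 (CS) and 69.9 (CC) in D2 MSNs. Its peaks lie about 1 kb from the start, and in some lists they are more than 1000 bp away.

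**Figure D4:**
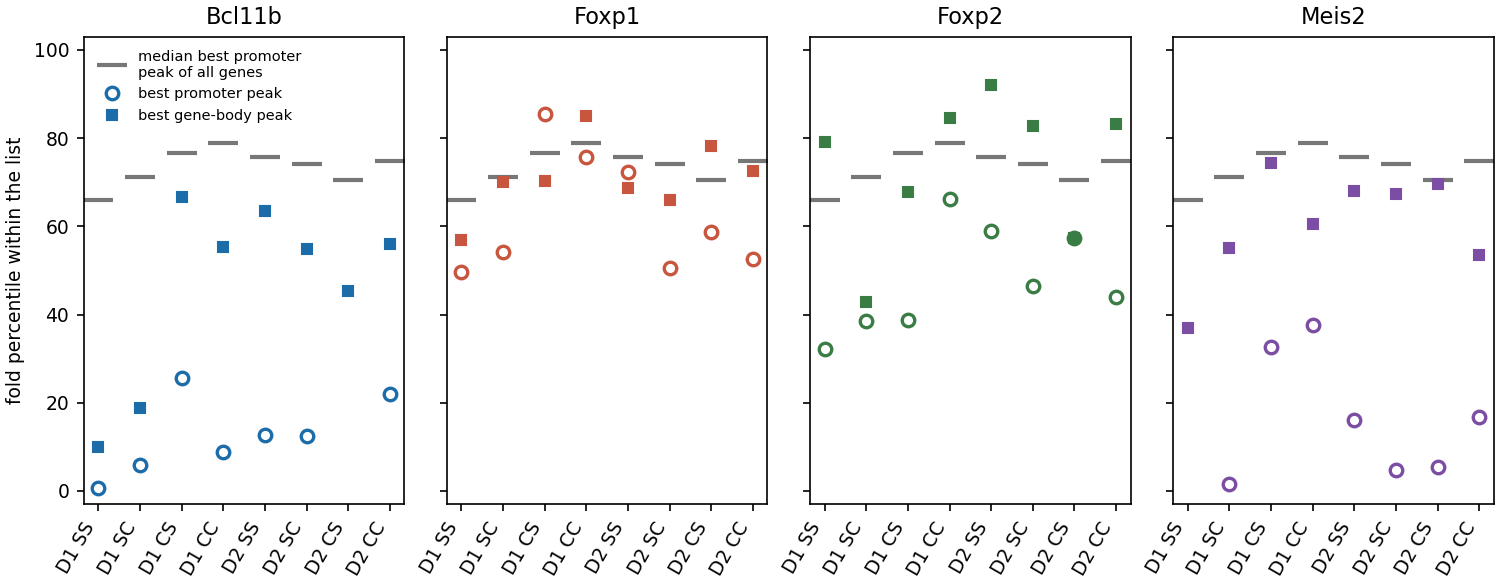
Fold percentile within the list (y axis) of the best promoter peak (open circles) and the best gene-body peak (squares) of each gene in the 8 lists (x axis), with the median best promoter peak of all genes in that list (grey bars). Bcl11b and Meis2 promoters lie at or below 37.6 in each list that has a promoter peak, under their gene-body peaks.

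The best gene-body peak exceeded the best promoter peak in 7 of 7 lists for Bcl11b, 7 of 7 for Meis2, 7 of 8 for Foxp2 and 6 of 8 for Foxp1. The exceptions were Foxp1 in D1 CS and D2 SS and a tie for Foxp2 in D2 CS. Over all genes with both kinds of peak, the gene-body peak was the higher in 34.2% (D2 CS) to 41.7% (D1 SS). The 8 lists share most of these peaks and are not independent counts. The number of gene-body peaks was not matched, and the best of many peaks tends to be higher. Foxp1 had 8 to 34 gene-body peaks in a list, Foxp2 2 to 16, Meis2 1 to 14 and Bcl11b 1 to 13. Over all 21540 genes with an element, the median was 1 element, counted over the 8 lists together. That set is wider than the genes with both kinds of peak, whose number of gene-body peaks is not given here. How far the number of gene-body peaks accounts for the difference was not tested.

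Hardly any region of the series was held by all lists of 1 cell type and by none of the other, and the 4 genes had no such element. In all 4 D1 lists and no D2 list there were 0 of the 105 elements (0.00529% of all regions), and in all 4 D2 lists and no D1 list 0 (0.037% of all regions). A looser count, 2 or more lists of a cell type and none of the other, gave 1 D1 element (2.84% of all regions) and 9 D2 elements (8.22% of all regions). The D1 element is chr12:107960948-107961194 in Bcl11b, held by D1 CS and D1 CC at percentiles of 13.8 and 13.4. Of the 9 D2 elements, 5 were in Foxp1, 2 in Foxp2 and 2 in Meis2. Their share of the 105, 8.57%, is near that of all regions.

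By state, no element was in both SS lists and no other (0.019% of all regions), in both SC lists and no other (0.00423%) or in both CS lists and no other (0.0847%). In both CC lists and no other there were 5 of 105, or 4.76%, against 2.45% of all regions. Foxp1 had 3 of them, at chr6:99103504-99103869, chr6:99503459-99503737 and chr6:99509350-99509698, Bcl11b 1 at chr12:107920951-107921630 and Meis2 1 at chr2:116019457-116020117. The strongest was chr6:99503459-99503737, with a percentile of 44.1 for D1 CC and 7.76 for D2 CC. The other 4 were at or below percentile 12.5 in both lists. D1 CC and D2 CC are also the longest lists.

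A further 26 elements were in 1 list, or 24.8%, against 26.7% of all regions, and 17 of them were in D1 CC only, or 16.2%, against 13.6% of all regions. Foxp1 had 7 of the 17, Foxp2 4, Meis2 4 and Bcl11b 2. In D1 CC itself, the elements held by all 8 lists had a median percentile of 55.5 (n = 12 elements), those held by 2 to 7 lists 18.6 (n = 57) and those in D1 CC alone 10.4 (n = 17). Elements of D1 CC alone were thus mostly weak, and narrow, with a median width of 232 bp.

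**Figure D5:**
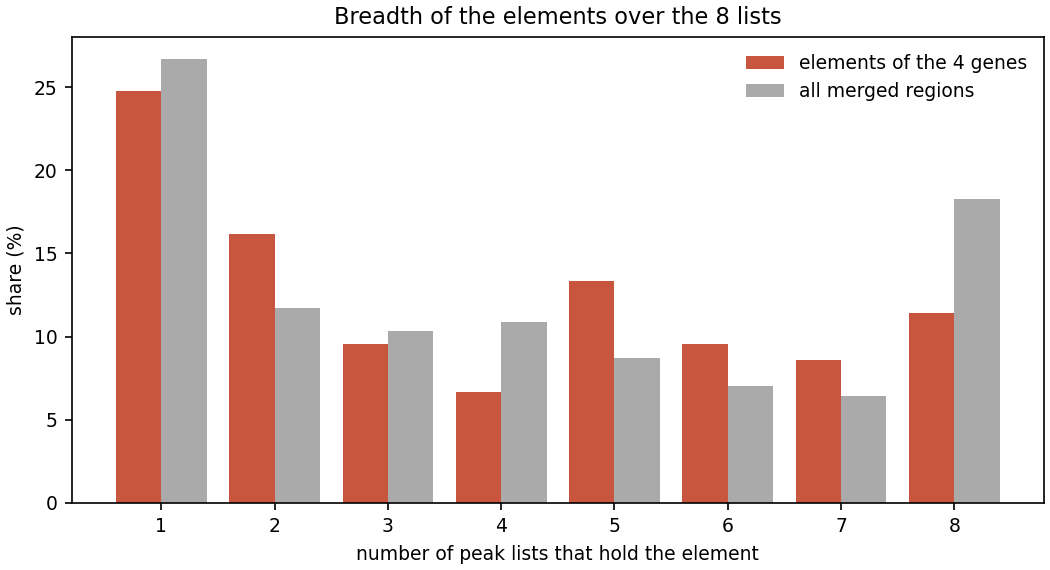
Share (y axis, %) of the 105 elements of the 4 genes (red) and of all 94493 merged regions (grey) by the number of peak lists that hold them (x axis). The genes' elements stand below all regions at 8 lists, 11.4% against 18.2%, and near them at 1 list, 24.8% against 26.7%.

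Peaks of a list were also searched in a second list, with at least 1 bp of overlap. The ranges in parentheses are exact 95% Clopper-Pearson limits, for counting error alone. Among the D1 lists, D1 SS peaks of the 4 genes were all found in D1 CC (26 of 26, 86.8 to 100%, against 97.4% of all D1 SS peaks), and 88.5% (69.8 to 97.6%) in D1 CS, against 86.9%. In D1 SC the share was 61.5% (40.6 to 79.8%), against 70.7%. Foxp2 accounts for 6 of the 10 peaks missed there. In the other direction, 63.0% (42.4 to 80.6%) of the D1 SC peaks were found in D1 SS, against 73.5% of all, 50% (35.2 to 64.8%) of the D1 CS peaks, against 52%, and 28.0% (19.1 to 38.2%) of the D1 CC peaks, against 35.5%. In D1 CC, Bcl11b had 2 of 15 peaks also in D1 SS, Foxp1 11 of 42, Meis2 4 of 16 and Foxp2 9 of 20. Of the D1 CC peaks, D1 SC held 26.9% (18.2 to 37.1%), against 33.8%, and D1 CS 47.3% (36.9 to 57.9%), against 55.1%. Most peaks of the 4 genes were of the gene-body class (19 of 26 in D1 SS, 77 of 93 in D1 CC). Of all gene-body peaks of D1 SS, 96.4% were in D1 CC, 81.9% in D1 CS and 57.5% in D1 SC. D1 SS held 67.8% of those of D1 SC, 43.2% of D1 CS and 26.9% of D1 CC. Of those of D1 CC, D1 SC held 22.9% and D1 CS 47.3%. The share of the 4 genes was below the gene-body share only for D1 SC peaks in D1 SS, and level with it for D1 CC peaks in D1 CS. The shares of the 4 genes include their promoter peaks, so these sets are not alike. A share for the gene-body peaks of the 4 genes was not computed. With every list limited to its strongest 27917 peaks the order of D1 SS and D1 CC turned. D1 CC then held 52% (31.3 to 72.2%) of 25 peaks of D1 SS, against 78.5% of all, and D1 SS held 81.2% (54.4 to 96.0%) of 16 peaks of D1 CC, against 75.9%.

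Among the D2 lists, the baseline and acute lists shared most peaks of the 4 genes. Of the D2 SS peaks 80% (68.2 to 88.9%) were found in D2 SC, against 82.1% of all, and of the D2 SC peaks 78.8% (67.0 to 87.9%) in D2 SS, against 87.1%. D2 SS peaks were found in D2 CC in 93.8% (85.0 to 98.3%), against 89.4%, with all 30 Foxp1 and all 14 Foxp2 peaks among them. D2 CC peaks were found in D2 SS in 76.9% (66.0 to 85.7%), against 80%, and in D2 SC in 76.9%, against 77.3%. D2 CS, the shortest list, had few of the other lists' peaks: 26.2% (16.0 to 38.5%) of D2 SS, against 38.3%, and 24.4% (15.3 to 35.4%) of D2 CC, against 34.7%. Of its own 20 peaks, 90% (68.3 to 98.8%) were in D2 SS, against 93.7%. Gene-body peaks of D2 SS as a whole were found in D2 CS in 25.3%, in D2 SC in 78.2% and in D2 CC in 87.2%. Of those of D2 CC, D2 SS held 75.1%, D2 SC 72.3% and D2 CS 22.3%. D2 SS held 83.4% of the gene-body peaks of D2 SC and 93.3% of those of D2 CS. The share of the 4 genes, which again includes promoter peaks, was below the gene-body share for D2 SC and D2 CS peaks in D2 SS. It was above it otherwise.

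Between the cell types at the same state, D1 SS peaks of the 4 genes were in D2 SS in 96.2% (80.4 to 99.9%), against 98.1%, and D2 SS peaks in D1 SS in 38.5% (26.7 to 51.4%), against 44.2%. The peak missing from D2 SS was in Foxp2. D1 SC peaks were in D2 SC in 88.9% (70.8 to 97.6%), against 92.7%, and D2 SC peaks in D1 SC in 34.8% (23.5 to 47.6%), against 41.9%. D1 CS peaks were in D2 CS in 37.5% (24.0 to 52.6%), against 50.2%, and D2 CS peaks in D1 CS in 90%, against 93.7%. D1 CC peaks were in D2 CC in 75.3% (65.2 to 83.6%), against 73%, and D2 CC peaks in D1 CC in 82.1% (71.7 to 89.8%), against 79.2%. Gene-body peaks of D1 lists as a whole were in the D2 list in 96.8% (SS), 90.8% (SC), 34.7% (CS) and 68.8% (CC). Those of D2 lists were in the D1 list in 35.4% (SS), 29.8% (SC), 91.5% (CS) and 75.6% (CC). The shares of the 4 genes, which again include promoter peaks, were below these for D1 SS, D1 SC and D2 CS peaks, and above them otherwise. In the whole lists, most shares of the 4 genes were below those of all peaks. For all 24 shares computed there, the interval of the 4 genes held the share of all peaks of the list. With lists of equal length this was so for 19 of 24. The other 5 shares were below those of all peaks: D1 SS in D1 CC, as given above, D1 SS in D1 CS (48%, against 73.6%), D1 SS in D2 SS (64%, against 82.8%), D1 SC in D2 SC (50%, against 74.7%) and D2 CS in D1 CS (60%, against 82.5%). Gene-body shares were not computed with lists of equal length. The pairs reuse the same lists and neighbouring peaks of a gene are not independent, so these counts of intervals are a description and no test.

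The other striatal transcription factor genes, a list of 32 that holds relatives and partners of the 4 genes and other lineage factors, were set beside them. All 32 had an element, with a median of 4, and 39 of their 257 elements (15.2%) were in all 8 lists. The promoter had a peak in all 8 lists for 17 of the 32 (53.1%), against 39.0% of all genes with an element. Of the 4 genes, Foxp1 and Foxp2 had a promoter peak in all 8 lists, and Bcl11b and Meis2 in 7. Pknox2 and Rarb had 28 elements each, and no gene of the list had more. Pknox2 encodes a homeodomain protein of the same class as Meis2, and Rarb a retinoic acid receptor.

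The relatives of Bcl11b, Foxp1, Foxp2 and Meis2 differed in the same measure. Bcl11a, the closest relative of Bcl11b, had 12 elements, 0 of them in all 8 lists, and its promoter, absent from D1 SC, had a median percentile of 1.08. Foxp4 had 6 elements and a promoter peak in all 8 lists at a median of 78.3. Meis1 had 10 elements and a promoter at a median of 20.3 that was absent from D1 SS and D2 CS, and Meis3 1 element, with a promoter peak in 5 lists. The promoters of Bcl11a, Bcl11b, Meis1 and Meis2 were thus all weak, and that of Foxp4 was not.

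The other genes of the list with a promoter peak in fewer than 8 lists were Pbx2, Ebf1, Zfp503, Sp8, Sp9, Six3, Dlx1, Dlx2, Dlx5, Gsx2, Ikzf1 and Tshz1. Sp9, Six3, Dlx2, Dlx5 and Ikzf1 lacked it in D1 SS only, and Dlx1 in D1 SS and D2 CS. Sp9 and Six3 are factors of D2 MSNs. Ebf1, a D1 MSN factor, lacked it in D1 SC and D2 CS. Over the 32 genes, the promoter was missing for 13 in D1 SS, 9 in D2 CS, 7 in D1 SC and 0 in D1 CC. Of all 21540 genes with an element, 9892 had a promoter peak in D1 SS, 11734 in D2 CS, 11429 in D1 SC and 14738 in D1 CC. Over all genes, too, D1 SS had the fewest genes with a promoter peak and D1 CC the most.

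The genes whose share of peaks varied over the 8 lists most like each of the 4 were sought among 388 genes with at least 20 elements, by Pearson's r of log2 of peaks plus 1 per 10000 peaks of the list. The 8 points are shared lists of unequal depth, so r is a description. The genes were picked by these same counts, so a high r and like counts are built into the choice. For Bcl11b they were Prkag2 (r = 0.95), Macf1 (0.94) and Sorcs2 (0.92), for Foxp1 Prkg1 (0.91), Cacna2d3 (0.90) and Aff3 (0.88), for Foxp2 Erbb4 (0.93), Ralyl (0.93) and Mdga2 (0.92), and for Meis2 Cobl (0.92), Mapk10 (0.91) and Lsamp (0.89). Erbb4, a neuregulin receptor, had 10 peaks in D1 SS and 2 in D1 SC, as Foxp2 had 9 and 4. Prkag2, a subunit of the AMP-activated kinase, had 3 peaks in D1 SS and 15 in D1 CS, as Bcl11b had 2 and 11. Between the 4 genes, r ran from -0.70 for Bcl11b with Foxp2 to 0.77 for Foxp1 with Meis2.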

How the data were processed

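The deposited data were 8 ATAC-seq peak lists, 1 for each group, from 26 libraries. The submitters' processing notes name the build mm10 and the tools cutadapt, HISAT, SAMtools and MACS2, with no version of any. Pooling of libraries ahead of peak calling is not given in the sources used here. The fold enrichment of a peak is a ratio that the authors deposited, and it is not scaled between lists. The q-value of a peak, also deposited by the authors, reached 0.0453 at most. Read totals are not in the lists, so depth is unknown. The lists have 0 columns of single libraries, so no replicate error, p-value or paired fit was possible.

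Only peaks of autosomes, X and Y entered, with 1-based starts and a smallest width of 200 bp. Members were taken by the authors' gene name, and promoter peaks by an absolute distance of up to 1000 bp. Peaks that overlapped by at least 1 bp were chained over the 8 lists into elements, and a list held an element when any of its peaks overlapped it. The percentile of a fold was computed within its list. Shares carry exact Clopper-Pearson intervals at 95% confidence, for counting error only. The chaining and overlap steps were tested on simulated data. Gene positions and promoter windows came from RefSeq tables of GRCm38.p6, in which windows of 3 of the 4 genes were matched. The software was Python 3.11.15 with scipy 1.17.1, pandas 2.3.3, numpy 2.4.6 and, for plots, matplotlib 3.10.9.

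The members, the list of 32 other transcription factor genes and the marker lists were chosen with earlier results of these data known. Named elements follow a rule: every promoter element, the 3 elements of each gene in all 8 lists with the highest median percentile, and elements held by only 1 cell type (all 4 lists) or only 1 state (both lists). Of the other factors, relatives, the 3 with most elements and those without a promoter peak in all 8 lists were named. The Foxp2 elements that D1 SC lacked, the remaining Foxp1 elements in all 8 lists and the D1 element of Bcl11b were singled out after their values were seen. Alternatives were a q of at most 1e-05, lists limited to their strongest 27917 peaks by q, peaks within 200 bp joined, only peaks assigned to the same gene, D1 SC left out, peaks inside the RefSeq gene, promoters within 250 or 3000 bp, a reciprocal overlap of 50% and a peak within 1000 bp.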

Additional observations from a re-analysis of the deposited data

Results flagged for a closer look

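In 6 cases the share of peaks of a gene in the whole lists was higher in 1 cell type and lower in the other, relative to the SS list of the same cell type. None of these differences was tested, since each group has 1 list. The values are log2 ratios of peaks per 10000 peaks of the list. For CS against SS, Bcl11b had 1.70 in D1 and -0.02 in D2, a difference of 1.72 in which the D2 value is close to 0, Foxp1 had 0.24 and -0.59, a difference of 0.83, and Meis2 had 0.05 and -1.44, a difference of 1.48. For SC against SS, Foxp2 had -1.16 in D1 and 0.26 in D2, a difference of -1.42. For CC against SS, Foxp2 had -0.28 and 0.13, a difference of -0.41, and Meis2 had 0.57 and -0.27, a difference of 0.84. With every list limited to its strongest 27917 peaks, 0 of these 6 cases kept both directions. For CS against SS, Foxp1 then had 8 against 11 peaks in D1 and 9 against 8 in D2, Meis2 3 against 4 and 2 against 1, and Bcl11b 2 against 1 and 4 against 1. Foxp2 had 4 (SC) and 5 (CC) against 9 in D1, and 7 against 7 in D2 for both states, and Meis2 had 4 against 4 (CC) in D1 and 2 against 1 in D2. Every D1 ratio sets a list with many patch peaks against D1 SS, which has few. The D2 ratios of CS set such a list against D2 SS. In these ratios the split in patch peaks and the state cannot be told apart.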

How the results depend on the processing

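No paired analysis was possible because each group has 1 peak list and no value per library, so the replicate numbers of the labels could not be used, and no library could be left out. Counts from 1 list show no spread, and with no read totals the smallest site that each list could show is unknown. The number of elements in all 8 lists, 12, was 9 with a q of at most 1e-05 (of 85 elements) and with lists of equal length (of 42), 11 with peaks within 200 bp joined, 12 with only peaks of the same gene and 13 with D1 SC left out. In each of these settings the share stayed below that of all regions. The best gene-body peak was above the best promoter peak in 27 of 30 cases, and in 19 of 22 to 28 of 31 under the 4 alternatives. Peaks of the 4 genes numbered 16 in D1 SS and 17 in D1 SC with a q of at most 1e-05. With lists of equal length they numbered 16 in D1 CS, D1 CC and D2 SC, 17 in D2 SS and 18 in D2 CC. Lists with a Bcl11b promoter peak fell from 7 to 2 with lists of equal length and to 0 with promoters within 250 bp of the authors' start, which is not the RefSeq 5′ end that the element covers, and those with a Meis2 promoter peak from 7 to 4 with lists of equal length. Single-gene values moved in 30 of 131 cases, 22 of them with lists of equal length.

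Shares of shared peaks moved outside their intervals mainly with lists of equal length and with a reciprocal overlap of 50%. With lists of equal length, shares found in D1 SS were 81.2% for D1 CS, 81.2% for D1 CC and 94.1% for D2 SS. D1 SS peaks were found in 48% in D1 CS, 52% in D1 CC and 64% in D2 SS. Of the D1 CC peaks, D1 SC held 75%, D1 CS 68.8% and D2 CC 87.5%. D2 SS peaks were found in 94.1% in D2 SC and 70.6% in D2 CS, and D2 SC peaks in 100% in D2 SS and 75% in D1 SC. D2 CS peaks were found in 65% in D2 SS and 60% in D1 CS, D2 CC peaks in 72.2% in D2 CS, D1 SC peaks in 50% in D2 SC and D1 CS peaks in 68.8% in D2 CS. With a reciprocal overlap of 50%, D1 SS peaks were found in 73.1% in D1 CC and 76.9% in D2 SS, and of the D1 CC peaks, D1 SC held 11.8%, D1 CS 35.5% and D2 CC 51.6%. D2 CS peaks were found in 30% in D2 SS and 55% in D1 CS, and D2 SS peaks in 9.23% in D2 CS and 72.3% in D2 CC. D2 CC peaks were found in 60.3% in D2 SS, 64.1% in D2 SC, 8.97% in D2 CS and 61.5% in D1 CC. D1 SC peaks were found in 33.3% in D2 SC, D2 SC peaks in 13.6% in D1 SC and D1 CS peaks in 22.9% in D2 CS. With a peak within 1000 bp, 100% of D2 CS peaks were found in D2 SS, and with a q of at most 1e-05, 100% of D1 SS peaks in D2 SS. The fewer peaks tested with lists of equal length and the stricter match bear on these values by construction.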
